A study of Mus musculus with 15 samples.

Results

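The 47 genes described here encode the Wnt signalling system at the cell surface and its core inside the cell: 19 Wnt ligands, 10 Frizzled receptors, 2 co-receptors, 9 secreted antagonists of the Dkk, Sfrp and Wif types, 5 genes of the destruction complex and beta-catenin, and 2 transcription factors. They were chosen by name, as every gene called Wnt, Fzd, Dkk or Sfrp with a number, plus Lrp5, Lrp6, Ctnnb1, Axin1, Axin2, Apc, Gsk3b, Lef1, Tcf7l2 and Wif1. They are 47 of the 33058 gene names with a summed value in the table of linear transcripts, and no gene on the list was missing. Whole-transcriptome RNA sequencing was done on kidney from male C57BL/6 mice (C57BL/6J in the study's methods) aged 3 months (young), 12 months or 24 months (old), with 5 mice at each age and no genetic change or treatment. The study set the old against the young mouse kidney, and the 12-month mice allow 2 further comparisons, all of which share mice and are therefore not independent of each other.

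Wnt proteins are secreted lipid-modified ligands that bind a Frizzled receptor together with Lrp5 or Lrp6. In the absence of a ligand, a complex built on Axin and Apc lets Gsk3b mark beta-catenin (the product of Ctnnb1) for destruction. When the complex is held back, beta-catenin enters the nucleus and acts with Lef1, Tcf7l2 and their relatives, and Axin2 is a widely used target gene of that arm. Other ligands, among them Wnt5a and Wnt5b, act mainly through routes that do not need beta-catenin. In the kidney, Wnt9b from the ureteric bud and Wnt4 in the forming nephron drive tubule formation during development, and Wnt ligands return in injured and fibrotic adult kidney.

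Values are FPKM, fragments corrected for transcript length and for library size, summed over the transcripts of a gene. The libraries held 5.03 to 6.13 Gb of aligned bases at 3 months, 5.84 to 8.03 Gb at 12 months and 6.07 to 7.33 Gb at 24 months, so the young mice were sequenced least deeply. Proximal tubule markers summed to at least 1391 FPKM in every library, which fits the kidney label. Markers of some other cells moved with age. Between 3 and 24 months, no gene of the podocyte, urothelium, macrophage, smooth muscle or adipocyte lists passed an unadjusted limma p under 0.05. The fibroblast list (7 genes, all detected) summed to 25.4 to 59.7 FPKM at 3 months, 60.4 to 92.4 FPKM at 12 months and 44.7 to 70.7 FPKM at 24 months. The lymphocyte list (7 genes) summed to 2.30 to 5.53, 5.30 to 23.2 and 6.70 to 15.7 FPKM at those ages, and the intercalated cell list (5 genes) to 32.7 to 41.5, 21.5 to 30.5 and 22.9 to 29.1 FPKM. The collecting duct principal cell list (6 genes) summed to 88.2 to 251 FPKM, 75.2 to 105 FPKM and 64.9 to 108 FPKM. These ranges overlapped, and 16.7% of its genes passed that test between 3 and 24 months, beside 14.9% of all genes. In whole kidney RNA, more cells of a type and more RNA per cell cannot be told apart, and the part of these shifts in the results below was not tested.

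Beta-catenin, the co-receptors and most of the destruction complex were more abundant than any ligand, while Axin2 (0.594 FPKM) and Lef1 (0.384 FPKM) lay below the highest ligands. Of the 47 members, 20 had a mean of at least 1 FPKM over the 15 mice, 16 lay between 0.1 and 1 FPKM and 11 lay under 0.1 FPKM. Ctnnb1 stood highest at 68.0 FPKM, followed by the co-receptor Lrp6 at 52.9 FPKM, the receptor Fzd4 at 14.1 FPKM, the kinase gene Gsk3b at 13.2 FPKM, Lrp5 at 11.5 FPKM and the scaffold gene Axin1 at 10.1 FPKM. Of the 19 ligands, only Wnt5a (1.93 FPKM), Wnt7b (1.85 FPKM), Wnt2b (1.35 FPKM) and Wnt5b (1.04 FPKM) reached a mean of 1 FPKM. The neighbours Wnt5a and Wnt7b did not differ beyond their spread, since Wnt5a ran from 0.977 to 2.68 FPKM and Wnt7b from 0.155 to 3.54 FPKM over the 15 mice. At the other end, Wnt1, Wnt3, Wnt3a, Wnt7a, Wnt8a, Wnt6 and Wnt10b had means under 0.1 FPKM, and Wnt3a was above 0 in 3 of 15 mice. FPKM allows for length, so these levels can be set side by side.

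**Figure D1:**
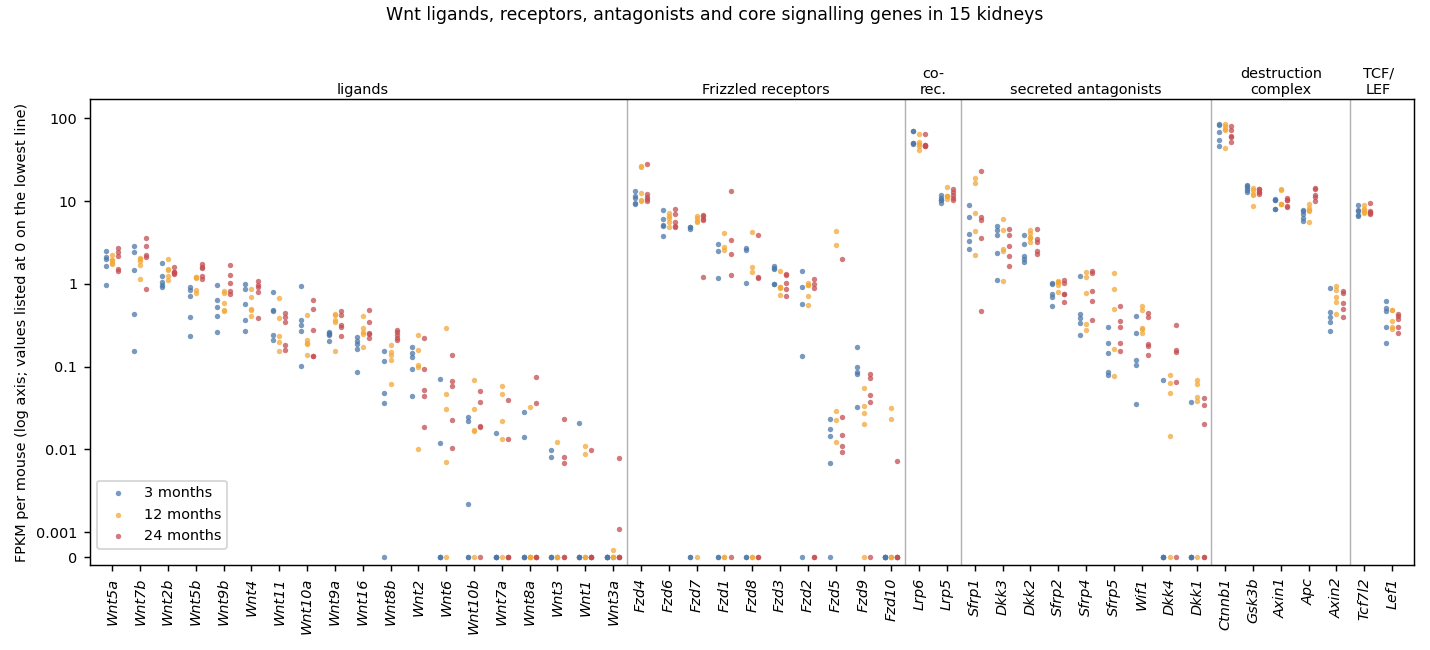
Each point is the FPKM of 1 of the 47 genes in 1 mouse on a log axis, with genes ordered within their role by mean level and colours giving the age; values listed at 0 lie on the lowest line. Ctnnb1 and Lrp6 sit at 41.3 FPKM or more in all 15 mice, while 15 of the 19 ligands have means under 1 FPKM.

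Among the antagonists, Sfrp1, which binds and sequesters Wnt proteins, had the highest mean, 7.62 FPKM, but ran from 0.471 to 22.9 FPKM between mice of the same age. Dkk3 (3.24 FPKM) and Dkk2 (3.21 FPKM), members of the Dickkopf family that contains the Lrp5 and Lrp6 blocker Dkk1, followed, whereas Dkk1 itself averaged 0.0229 FPKM and was above 0 in 8 of 15 mice. Of the transcription factors, Tcf7l2 averaged 7.70 FPKM and Lef1 averaged 0.384 FPKM, and the 2 ranges did not overlap.

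Between 3 and 24 months, 7 of the 47 members rose and none fell at an unadjusted limma p under 0.05. The 7 are 14.9% of the members, and 14.9% of all 31755 genes tested passed the same rule, so the share of members that moved was that of the kidney transcriptome as a whole. In the upward direction the members' 14.9% stood beside 11.4% of all genes. The excess of higher over lower calls was general: 3624 genes rose and 1101 fell, and 3029 rose and 1564 fell after median-ratio scaling. The members' median difference was 0.06 on the log2(FPKM + 1) scale, against 0.02 for all genes. With adjustment over all genes, Apc and Wnt8b stayed under 0.05, beside 1.22% of all genes. Apc, Wnt8b and Wnt5b (6.38% of the members) had values at 24 months that did not overlap those at 3 months, as did 4.73% of all genes in either direction. Without replicate 6 of the young mice, 4 members were called. As fragments scaled to library size alone (FPM), a measure chosen after seeing the data, 5 members rose and 1 fell, beside 4750 of all 31755 genes called. Wnt16 and Wnt9a were no longer called, and Gsk3b was called lower (log2 difference -0.14, SE 0.06, limma adjusted p = 0.286). Differences on this scale understate the change of low genes.

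The 7 were 5 of the 19 ligands (Wnt5b, Wnt8b, Wnt9b, Wnt16 and Wnt9a), the antagonist Dkk4 and the destruction complex gene Apc. None of the 10 Frizzled receptors, neither co-receptor and neither transcription factor passed the test. All 5 ligands were low in the young kidney, at means between 0.0711 and 0.623 FPKM.

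Wnt5b, a ligand of the beta-catenin-independent routes, rose from 0.623 ± 0.296 FPKM at 3 months to 1.45 ± 0.255 FPKM at 24 months (mean ± SD, n = 5 each), and stood at 1.03 ± 0.216 FPKM at 12 months. The 5 young mice had 0.235, 0.399, 0.71, 0.922 and 0.85 FPKM, the 12-month mice 0.766, 1.16, 1.21, 0.832 and 1.2 FPKM, and the old mice 1.54, 1.60, 1.13, 1.73 and 1.23 FPKM. Every old mouse was above every young mouse. The difference was 0.61 on the log2 scale (SE 0.15, limma adjusted p = 0.0884), and the exact permutation p over the 10 mice was 0.00794, 2-sided, which is the smallest that 5 mice against 5 can give. The call, at an unadjusted p under 0.05, held under all 19 alternative settings counted. Such tallies, here and below, leave out stricter rules for a call and settings in which the gene was not tested. Between 9.21 kb (young, median) and 20.6 kb (old, median) of aligned bases lay behind these values.

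Wnt5b (chr6:119432531-119544347 of GRCm38, minus strand) has 3 annotated starts, and the deposited transcripts separate them. The transcript from the middle start, ENSMUST00000118120, held over 90% of the gene's FPKM in 13 of 15 mice and rose by 0.67 on the log2 scale (SE 0.19, limma adjusted p = 0.396 over all transcripts), from 0.556 ± 0.392 to 1.42 ± 0.240 FPKM (n = 5 each). The far start was above 0 in 1 young mouse (0.226 FPKM) and the near start never passed 0.109 FPKM. The division of reads among the 3 transcripts is the assembler's estimate. The start regions, 250 bases before to 30 bases after each start, are shown because the 3 starts differ in base composition and in the FPKM assigned to them. They come from RefSeq on GRCm38.p6, with the transcribed bases in capitals together with any match to CTTTGAT or CTTTGAA, the core recognised by TCF and LEF factors, on either strand.
Wnt5b far start, ENSMUST00000178696, chr6:119544318-119544597, minus strand: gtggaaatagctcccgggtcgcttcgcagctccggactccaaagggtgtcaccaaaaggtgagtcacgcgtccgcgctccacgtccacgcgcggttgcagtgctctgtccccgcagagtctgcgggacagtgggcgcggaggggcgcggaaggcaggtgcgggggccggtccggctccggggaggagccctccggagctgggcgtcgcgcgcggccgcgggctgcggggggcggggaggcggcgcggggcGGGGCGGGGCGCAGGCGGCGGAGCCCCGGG
Wnt5b middle start, ENSMUST00000118120, chr6:119467182-119467461, minus strand: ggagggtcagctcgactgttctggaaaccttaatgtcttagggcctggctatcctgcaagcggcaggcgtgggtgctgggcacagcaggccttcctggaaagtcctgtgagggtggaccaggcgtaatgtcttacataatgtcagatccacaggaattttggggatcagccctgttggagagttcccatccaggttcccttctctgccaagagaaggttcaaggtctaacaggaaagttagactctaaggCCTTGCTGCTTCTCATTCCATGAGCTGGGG
Wnt5b near start, ENSMUST00000117171, chr6:119449357-119449636, minus strand: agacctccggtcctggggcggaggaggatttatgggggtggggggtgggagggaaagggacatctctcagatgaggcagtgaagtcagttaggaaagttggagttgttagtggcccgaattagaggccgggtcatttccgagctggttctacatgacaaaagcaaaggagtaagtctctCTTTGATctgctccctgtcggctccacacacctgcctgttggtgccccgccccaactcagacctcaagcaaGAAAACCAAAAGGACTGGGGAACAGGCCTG
The middle region held 4 CpG pairs at 53% G and C over the 300 bases of the table, against 47 pairs at 78% for the far start and a median of 7 pairs over 32851 promoters. More CpG pairs than the far start were found in 1.22% of all promoters, and more than the middle start in 62% of them. The near start held CTTTGAT, which occurs in 3.73% of all promoters, and neither of the other regions held either motif.

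Wnt9b, the ureteric bud ligand, was at 0.521, 0.263, 0.404, 0.637 and 0.977 FPKM in the young mice and at 1.68, 0.755, 1.01, 0.828 and 1.29 FPKM in the old mice. The groups overlapped through replicate 9 of the young mice. The means were 0.560 ± 0.271 and 1.11 ± 0.376 FPKM (n = 5 each), a difference of 0.44 on the log2 scale (SE 0.16, limma adjusted p = 0.231, exact permutation p = 0.0317), and the 12-month mean was 0.626 ± 0.160 FPKM. The principal cell markers of the collecting duct, which derives from the ureteric bud, had lower means at 24 than at 3 months in 6 of 6 genes, and 1 of them passed the test; their part in the Wnt9b result was not tested. The gene lies at chr11:103727364-103749821 on the minus strand, and its start region is shown beside those of Wnt5b because both ligands rose.
Wnt9b start, ENSMUST00000018630, chr11:103749792-103750071, minus strand: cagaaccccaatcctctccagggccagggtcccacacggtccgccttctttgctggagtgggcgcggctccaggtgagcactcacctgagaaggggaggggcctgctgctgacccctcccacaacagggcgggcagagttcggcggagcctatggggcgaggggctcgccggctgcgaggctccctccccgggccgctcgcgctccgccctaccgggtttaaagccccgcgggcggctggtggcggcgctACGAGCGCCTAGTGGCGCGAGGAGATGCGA
It held 29 CpG pairs, more than the Wnt5b middle start, and no match to CTTTGAT or to CTTTGAA, which occurs in 5.14% of all promoters. Over all members, 31 genes had 39 regions in the table, and the 2 motifs were found in Wnt5b, Wnt11 and Dkk1 alone.

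Wnt8b, a ligand known from the embryonic brain, was barely detected. It was listed at 0, 0.0480, 0.0365, 0.116 and 0.155 FPKM in the young mice and at 0.243, 0.210, 0.279, 0.222 and 0.261 FPKM in the old mice, with the 12-month mice between 0.0613 and 0.184 FPKM. All 5 old mice stood above all 10 others. The difference from 3 months was 0.22 on the log2 scale (SE 0.04, limma adjusted p = 0.0387, exact permutation p = 0.00794). It rested on a median of 0.906 kb of aligned bases per young library and 6.01 kb per old library, that is on few reads.

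Wnt16 was at 0.161, 0.226, 0.0865, 0.204 and 0.186 FPKM in the young and at 0.255, 0.246, 0.344, 0.219 and 0.489 FPKM in the old mice. It rose from 0.173 ± 0.0539 to 0.311 ± 0.110 FPKM (n = 5 each, log2 difference 0.16, SE 0.06, limma adjusted p = 0.250, exact permutation p = 0.0159). Wnt9a was at 0.259, 0.246, 0.238, 0.252 and 0.205 FPKM in the young and at 0.475, 0.232, 0.422, 0.3 and 0.321 FPKM in the old mice. It rose from 0.240 ± 0.0213 to 0.350 ± 0.0975 FPKM (log2 difference 0.12, SE 0.05, limma adjusted p = 0.315, exact permutation p = 0.0397), and its call held under 4 of 18 alternative settings. Both ligands overlapped between the ages. Dkk4, a blocker of Lrp5 and Lrp6, was listed at 0 in 4 of 5 young mice and at 0.0684 FPKM in the fifth, and the old mice had 0, 0.151, 0.322, 0.159 and 0.0656 FPKM. Its log2 difference was 0.16 (SE 0.06, limma adjusted p = 0.273, exact permutation p = 0.0873), so the exact test did not pass.

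Apc, the scaffold that holds beta-catenin for destruction, passed the adjusted test at a level well above the ligands. The young mice had 6.19, 7.79, 7.04, 5.70 and 7.52 FPKM, the 12-month mice 8.32, 7.87, 7.60, 9.14 and 5.50 FPKM and the old mice 11.7, 10.0, 14.1, 11.1 and 14.3 FPKM. Each old mouse stood above each of the 10 younger mice. The mean went from 6.85 ± 0.885 to 12.2 ± 1.9 FPKM (n = 5 each), 1.79-fold, a log2 difference of 0.75 (SE 0.12, limma adjusted p = 0.0246, exact permutation p = 0.00794). The rise lay in assembled isoforms: the 9 new isoforms of Apc summed to 4.99 ± 0.708 FPKM at 3 months and 9.90 ± 1.97 FPKM at 24 months, while the 9 annotated transcripts summed to 1.86 ± 0.497 and 2.34 ± 0.337 FPKM. With annotated transcripts alone, the log2 difference was 0.23 and the call was lost. The new isoform MSTRG.16638.1, of 15 exons, went from 1.73 ± 0.316 to 3.86 ± 0.651 FPKM (log2 difference 0.83, SE 0.13, limma adjusted p = 0.125 over all transcripts).

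**Figure D2:**
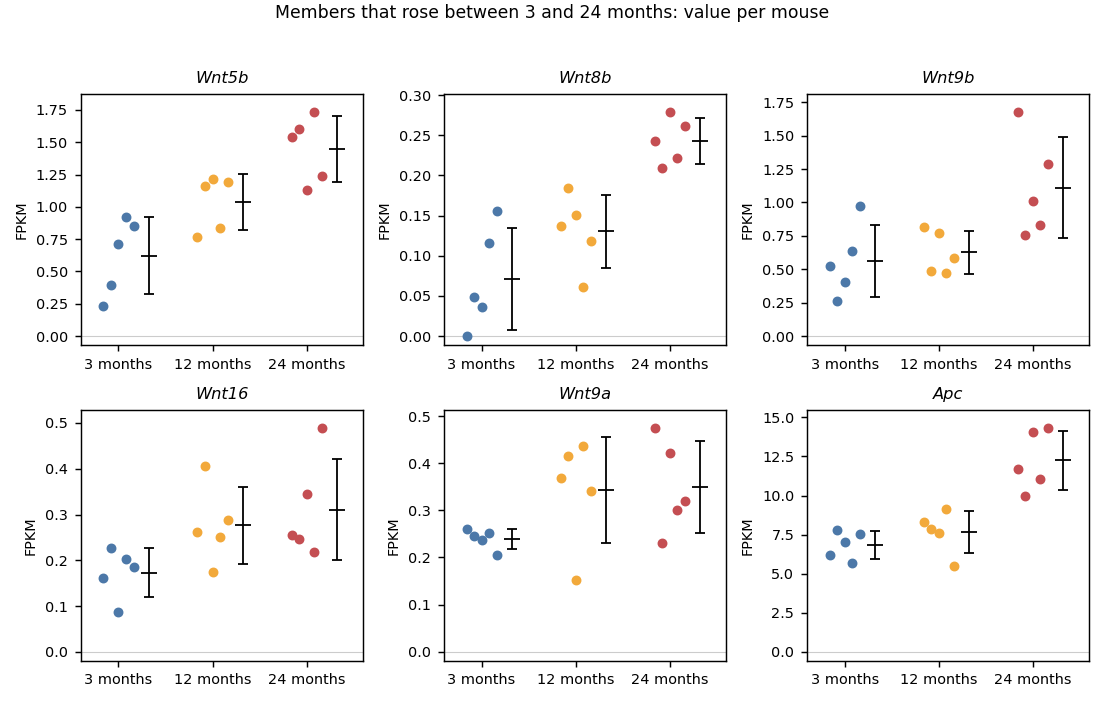
FPKM per mouse (y axis, linear) at 3, 12 and 24 months for Wnt5b, Wnt8b, Wnt9b, Wnt16, Wnt9a and Apc, with the mean ± SD of 5 mice beside the points. The 3- and 24-month values do not overlap for Wnt5b, Wnt8b and Apc, and overlap for the other 3 genes.

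Of the 177 member transcripts tested between 3 and 24 months, 10 passed the unadjusted test, which is 5.65% beside 7.90% of all transcripts, and none passed after adjustment. Of the 10, 7 were higher and 3 lower. The transcripts of Apc, Wnt5b and Wnt9b given above were among the higher. Among those with a mean of at least 0.5 FPKM, the short Lrp6 transcripts ENSMUST00000203016 and ENSMUST00000203773 fell, from 1.70 ± 0.160 to 1.13 ± 0.235 FPKM and from 1.38 ± 0.632 to 0.678 ± 0.306 FPKM, and the Ctnnb1 transcript ENSMUST00000130845 fell from 0.806 ± 0.370 to 0.360 ± 0.0841 FPKM (n = 5 each).

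**Figure D3:**
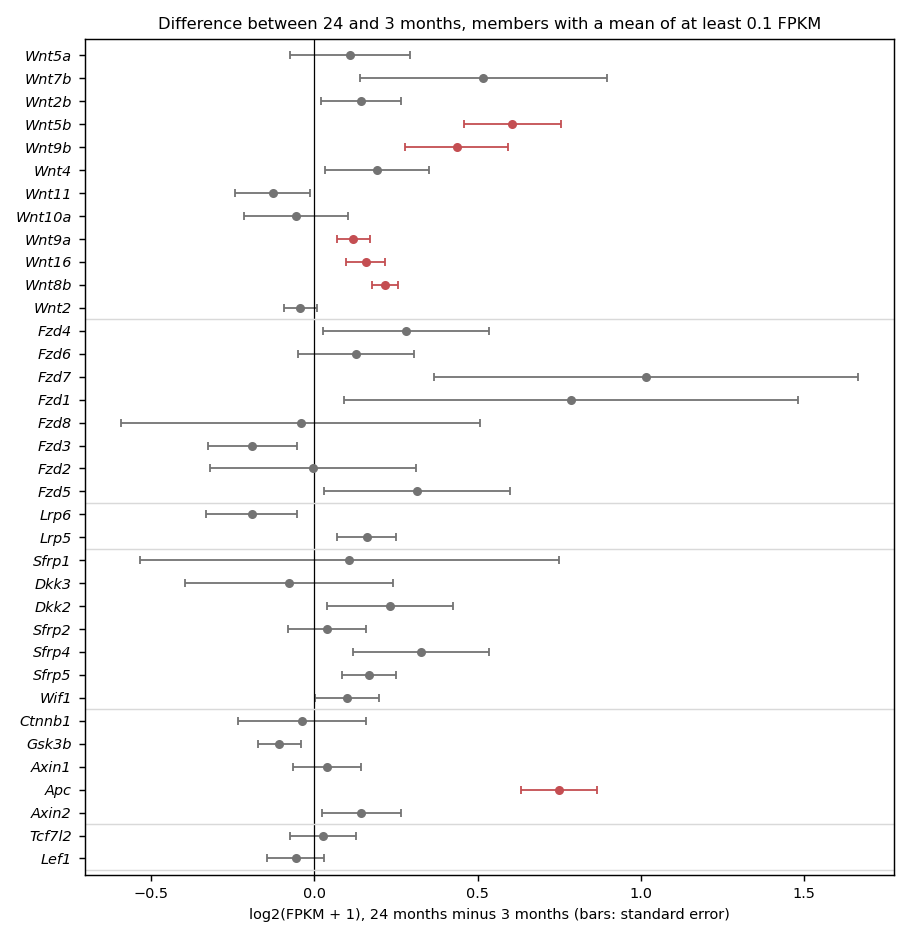
Difference in log2(FPKM + 1) between the 24- and 3-month mice (x axis) with its standard error for the 36 members with a mean of at least 0.1 FPKM, grouped by role. The 6 red points passed an unadjusted limma p under 0.05 (Wnt5b, Wnt9b, Wnt9a, Wnt16, Wnt8b and Apc), and the grey points did not.

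The receptors and the nuclear factors gave no call between 3 and 24 months. Fzd4, a receptor abundant in endothelium, had 9.14, 13.1, 10.9, 11.5 and 9.58 FPKM in the young mice and 12.2, 10.6, 11.3, 28.2 and 9.89 FPKM in the old mice. A single old mouse stood far above the other 4, and 2 of the 12-month mice were as high (26.2 and 26.1 FPKM) while the other 3 lay between 10.1 and 12.4 FPKM. The log2 difference was 0.28 (SE 0.25, limma adjusted p = 0.662). Fzd6 averaged 5.51 ± 1.47 FPKM in the young and 6.08 ± 1.34 FPKM in the old mice, and Fzd3 1.33 ± 0.314 and 1.04 ± 0.255 FPKM.

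Several Frizzled genes switched between a level and 0 from mouse to mouse. Fzd7, whose transcript is a single exon, was at 4.58 to 4.82 FPKM in 3 young mice and listed at 0 in the other 2, was listed at 0 in 1 of the 12-month mice with the other 4 at 5.64 to 6.61 FPKM, and was at 1.2 FPKM in 1 old mouse with the other 4 at 5.90 to 6.73 FPKM. Fzd1 was listed at 0 in 5 of 15 mice and at 13.1 FPKM in 1 old mouse, and Fzd8 was listed at 0 in 6 of 15 mice. Fzd5 was at most 0.0292 FPKM in 12 mice and at 2.90, 4.39 and 1.98 FPKM in the other 3. In replicate 8 of the young mice, where Fzd5 summed to 0, an assembled transcript of 1 exon across the gene, left out of the sum, held 2.69 FPKM. Fzd1, Fzd7 and Fzd8 each have 1 annotated transcript, of 1 exon, whereas the annotated transcripts of Fzd5 have 2 exons. Of 741 genes with a single transcript of 1 exon and a mean of 1 to 10 FPKM, 42.4% were listed at 0 in at least 1 mouse, against 4.85% of 1176 genes with a single transcript of several exons. A value at or near 0 for Fzd1, Fzd5, Fzd7 or Fzd8 is not read here as absence, and no age difference was called for any of the 4 receptors.

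**Figure D4:**
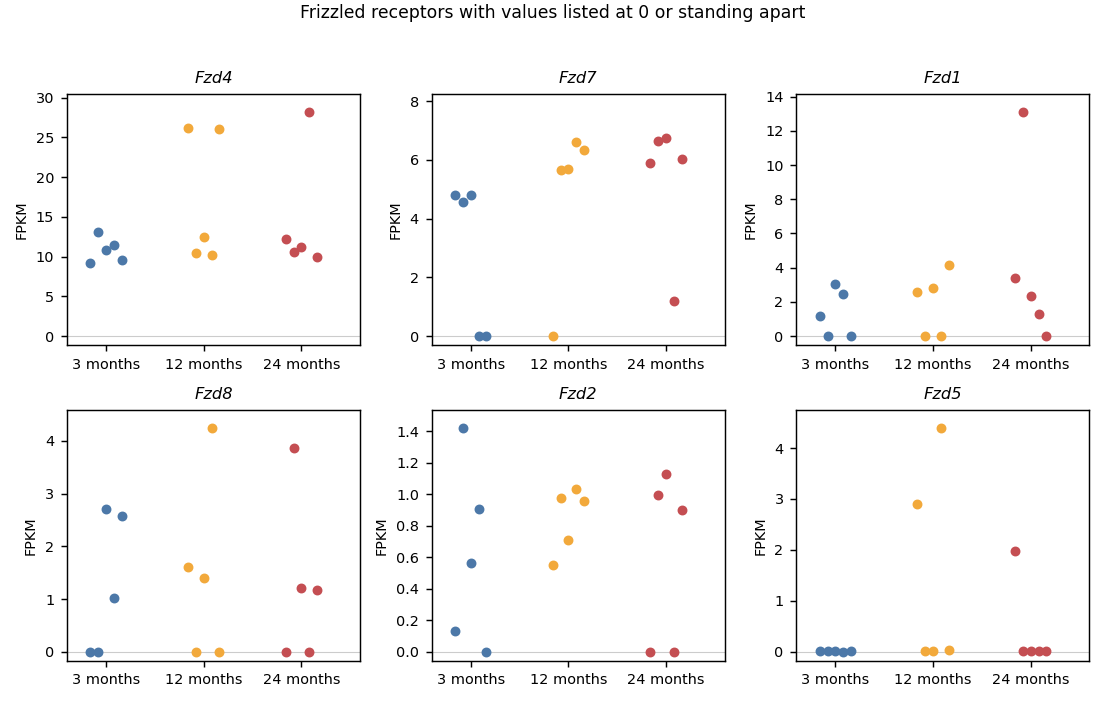
FPKM per mouse (y axis, linear) of 6 Frizzled receptors at 3, 12 and 24 months, without means because several values are listed at 0. Fzd7 lies between 4.58 and 6.73 FPKM in 11 mice, at 1.2 FPKM in 1 and at 0 in 3, Fzd5 lies near 0 in 12 of 15 mice, and 3 mice stand at 26.1 FPKM or more for Fzd4.

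Ctnnb1 had 86.2, 83.7, 69.2, 54.0 and 46.0 FPKM in the young mice and 80.6, 58.9, 61.6, 51.2 and 72.6 FPKM in the old mice, with wide overlap (log2 difference -0.04, SE 0.20, limma adjusted p = 0.941). Its main transcript, ENSMUST00000007130, was at 2.15 and 0.503 FPKM in 2 young mice and at 12.8 to 76.1 FPKM in the other 13. As FPM, which do not depend on that division, the gene stood at 353 ± 27.1 in the young, 326 ± 48.5 in the 12-month and 323 ± 44.9 in the old mice (n = 5 each). Lrp6 behaved likewise: its full-length transcript ENSMUST00000032322 was at 5.80 to 6.47 FPKM in 3 mice, 1 at each age, and at 15.9 FPKM in a further young mouse, against 24.2 to 43.2 FPKM in the others, and the gene's FPM were 362 ± 51.0, 360 ± 48.0 and 361 ± 46.4 at 3, 12 and 24 months. As FPKM, Lrp6 was 57.9 ± 10.7 in the young and 50.3 ± 7.71 in the old mice (log2 difference -0.19, SE 0.14, limma adjusted p = 0.582).

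Axin2, the target gene of the beta-catenin arm, had 0.271, 0.393, 0.457, 0.345 and 0.879 FPKM in the young mice, 0.436, 0.601, 0.929, 0.696 and 0.836 FPKM in the 12-month mice and 0.587, 0.400, 0.502, 0.768 and 0.815 FPKM in the old mice. In the young group 4 mice lay at or under 0.457 FPKM and replicate 9 lay inside the range of the older mice. The differences from 3 months were 0.22 at 12 months (SE 0.12, limma adjusted p = 0.475, exact permutation p = 0.127) and 0.14 at 24 months (SE 0.12, limma adjusted p = 0.653, exact permutation p = 0.294) and passed neither test. As FPM, Axin2 went from 1.36 ± 0.580 at 3 months to 2.27 ± 0.394 at 12 months and 1.89 ± 0.508 at 24 months (n = 5 each). On that scale, chosen after seeing the data, it passed the unadjusted rule at 12 months (log2 difference 0.50, SE 0.19, limma adjusted p = 0.267) and not at 24 months (0.31, SE 0.20, limma adjusted p = 0.527). Lef1 was 0.416 ± 0.170, 0.380 ± 0.0961 and 0.355 ± 0.0763 FPKM, and Tcf7l2 7.51 ± 0.905, 7.90 ± 0.692 and 7.68 ± 1.06 FPKM, at 3, 12 and 24 months (n = 5 each). Their differences between 3 and 24 months were -0.06 (SE 0.09) and 0.03 (SE 0.10) on the log2 scale. Wnt5a, the most abundant ligand, was 1.83 ± 0.567, 1.92 ± 0.181 and 2.05 ± 0.558 FPKM (log2 difference between 3 and 24 months 0.11, SE 0.18, limma adjusted p = 0.798), and Sfrp1 differed by 0.11 with an SE of 0.64.

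Between 3 and 12 months, 7 of 47 members passed the unadjusted test, 6 higher and 1 lower, and none passed after adjustment. The 14.9% of members called stood beside 14.3% of all 31637 genes, and the 12.8% called higher beside 11.4%. After adjustment, 0.250% of all genes passed. The members' count fell to 2 without replicate 5 of the young mice, to 3 without their replicate 6 or replicate 17 of the 12-month mice, and to 4 without replicate 7 or replicate 18. All-gene calls were split into 3620 higher and 917 lower, and into 2673 and 1549 after median-ratio scaling. Secreted antagonists made up 3 of the 7: Dkk2 rose from 2.6 ± 0.871 to 3.83 ± 0.480 FPKM (n = 5 each, log2 difference 0.45, SE 0.16, limma adjusted p = 0.247, exact permutation p = 0.0476), Wif1, the Wnt inhibitory factor, rose from 0.185 ± 0.148 to 0.367 ± 0.128 FPKM (log2 difference 0.21, SE 0.09, limma adjusted p = 0.344, exact permutation p = 0.0635), and Dkk1, listed at 0 in 4 young mice, reached at most 0.0691 FPKM at 12 months (log2 difference 0.05, limma adjusted p = 0.294). The 5 young mice had 2.19, 1.84, 3.92, 2.0 and 3.05 FPKM of Dkk2, against 3.62, 3.20, 4.16, 4.43 and 3.73 FPKM at 12 months, so that replicate 7 of the young mice alone reached the 12-month range. The call of Dkk2 held under 18 of 19 alternative settings, and as FPM its log2 difference was 0.57 (SE 0.19, limma adjusted p = 0.215). With annotated transcripts alone, which leaves out a new isoform, it was -0.26, and that isoform held 3.62 of 3.62 FPKM in 1 of the 12-month mice and 3.32 of 4.16 FPKM in another.

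The other calls at 12 months were small in absolute level. Wnt5b rose by 0.34 on the log2 scale (SE 0.15, limma adjusted p = 0.334, exact permutation p = 0.0556), Wnt16 by 0.12 (SE 0.05, limma adjusted p = 0.329, exact permutation p = 0.0397), and Wnt7a, listed at 0 in 4 of 5 young mice, by 0.03 (limma adjusted p = 0.348, exact permutation p = 0.0873). These calls held under 9 of 19 alternative settings for Wnt5b, 5 of 18 for Wnt16 and 9 of 18 for Wnt7a, and those of Wif1, Dkk1 and Fzd9 under 8, 11 and 18 of 18. Fzd9 was at 0.0861, 0.0824, 0.0323, 0.17 and 0.0981 FPKM in the young and at 0.0548, 0.0201, 0, 0.0338 and 0.0276 FPKM in the 12-month mice. It was the only member called lower, from 0.0938 ± 0.0495 FPKM at 3 months to 0.0273 ± 0.0200 FPKM (log2 difference -0.09, SE 0.03, limma adjusted p = 0.220, exact permutation p = 0.0238). Wnt7a, Dkk1 and Fzd9 rested on at most 1.96 kb of aligned bases in any library. At 12 months the fibroblast list moved with these members, since 6 of its 7 genes rose, among them Dcn from 10.2 to 20.9 FPKM and Col1a1 from 2.6 to 5.80 FPKM, and 4 of 7 lymphocyte genes rose.

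Between 12 and 24 months, 4 members passed the unadjusted test, all higher, and none after adjustment (the 8.51% of members called compares with 6.43% of all 32282 genes, and with 3.07% called higher). They were Apc (log2 difference 0.61, SE 0.14, limma adjusted p = 0.586), Wnt8b (0.14, SE 0.03, limma adjusted p = 0.586), Wnt9b (0.37, SE 0.13, limma adjusted p = 0.741) and Wnt5b (0.27, SE 0.12, limma adjusted p = 0.764). The exact permutation p was 0.00794 for Apc and Wnt8b, 0.0317 for Wnt9b and 0.0476 for Wnt5b. All-gene calls here were 990 higher and 1085 lower, 1422 and 726 in TPM, and 1160 and 943 after median-ratio scaling, so the balance of directions depended on the scaling. These 4 genes also had calls between 3 and 24 months, in a comparison with the same old mice. Without replicate 18 or replicate 20 of the 12-month mice, 2 members were called. The fibroblast genes Col1a1, Col1a2 and Col3a1 fell in this interval.

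Around these members, 89 other genes of Wnt signalling were measured. Between 3 and 24 months 17 of them rose and 3 fell, 22.5% of the list beside 14.9% of all genes, with a median difference of 0.08 on the log2 scale against 0.02 for all genes. Without replicate 33 of the old mice, 12 were called. With genes of a mean of at least 0.5 FPKM alone, fewer of the list were called, as given below, beside 2935 of all 15688 genes. That is a larger share of all genes than the 14.9% without this limit. How many of the list it tested is not given here, so whether the list's higher share holds among these genes was not tested. By function, 3 of 12 feedback and target genes, 3 of 14 nuclear cofactors, 3 of 14 polarity and calcium genes, 3 of 13 receptor-side genes, 5 of 23 cytoplasmic genes, 2 of 7 secretion and ligand modifiers and 1 of 6 other antagonists were called. Ccnd1, which encodes cyclin D1 and has many inputs besides Wnt, rose most securely, from 33.6 ± 7.27 to 73.2 ± 16.1 FPKM (n = 5 each, log2 difference 1.10, SE 0.19, limma adjusted p = 0.0327, exact permutation p = 0.00794). Reck, a co-receptor for Wnt7 proteins, rose from 2.0 ± 0.342 to 3.01 ± 0.238 FPKM (limma adjusted p = 0.0766), Cd44 from 0.940 ± 0.290 to 1.71 ± 0.159 FPKM (limma adjusted p = 0.0880) and the beta-catenin cofactor gene Pygo2 from 0.868 ± 0.996 to 3.19 ± 0.623 FPKM (limma adjusted p = 0.0923). These 4 genes and Btrc did not overlap between the ages. Nkd2, Bcl9, Btrc, Daam1 and Pygo1 rose by 0.13 to 0.47 on the log2 scale, and the R-spondin gene Rspo3 rose from 0.0525 to 0.175 FPKM.

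Between 3 and 12 months 19 of the 89 genes rose and 1 fell, 22.5% beside 14.3% of all genes, and 13 were called without replicate 8 of the young mice. Of all genes with a mean of at least 0.5 FPKM, 2849 of 15637 were called, a larger share than the 14.3% without this limit. Whether the list's higher share holds among these genes was not tested. Ccnd1 again passed after adjustment, at 67.8 ± 8.96 FPKM (n = 5, log2 difference 1.01, SE 0.16, limma adjusted p = 0.0495). Csnk1g2, a casein kinase that phosphorylates Lrp6, rose from 13.5 ± 0.766 to 18.6 ± 2.57 FPKM (limma adjusted p = 0.0844) and the beta-catenin cofactor Bcl9 from 4.02 ± 0.833 to 6.21 ± 0.971 FPKM (limma adjusted p = 0.131). Sost, the bone antagonist sclerostin, rose from 0.102 ± 0.0402 to 0.267 ± 0.102 FPKM, and Nkd1, a feedback inhibitor, from 0.446 ± 0.131 to 0.761 ± 0.172 FPKM. Pygo1, Nfatc1, Daam2, Vangl2 and Reck also rose. Between 12 and 24 months 2 of 89 rose and 4 fell, 6.74% beside 6.43% of all genes, and 3 were called without replicate 34 of the old mice. The transducin-like corepressor Tle3 fell from 10.9 ± 2.30 to 7.16 ± 1.10 FPKM (log2 difference -0.53, SE 0.14, limma adjusted p = 0.667), Csnk2b, Csnk1g2 and Daam2 fell by 0.20 to 0.27, and Tspan12 and Invs rose. Tspan12, the Fzd4 partner of Norrin signalling, had a log2 difference of 0.75, which was -0.51 with annotated transcripts alone.

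The deposited circular RNAs add a further readout of the same genes. An exonic circular RNA arises when the end of an exon is joined back to the start of the same or an earlier exon, and an intronic one is formed from an intron. The table held 32 circles of 9 members (9 of Lrp6, 8 of Lrp5, 5 of Apc, 2 each of Ctnnb1, Tcf7l2, Gsk3b and Fzd6, and 1 each of Axin2 and Fzd3), of which 27 were exonic and 5 intronic, and none came from a ligand or a secreted antagonist. The Apc intronic circles ciRNA383 and ciRNA559 end at neighbouring bases and had identical counts, and both are counted. Both ends of all 27 exonic circles lay exactly on exon ends of the annotated transcript on GRCm38. The junctions that the age comparison turns on are shown as the 15 bases before the join in lower case and the 15 bases after it in capitals, read from the GENCODE transcripts.
Axin2 circRNA7027, exons 2 to 3, chr11:108923152-108931579, plus strand: gacggacagtagcgtAGAGGAGGCTCACAT
Lrp5 circRNA458, exons 2 to 5, chr19:3647528-3659640, minus strand: agacgtgcaagacagCCTCACCGCTCCTGT
Lrp5 circRNA5089, exons 3 to 5, chr19:3647528-3652330, minus strand: agacgtgcaagacagGTACATGTACTGGAC
Ctnnb1 circRNA6920, exons 3 to 9, chr9:120950522-120955667, plus strand: tggcctctgataaagCTGACCTGATGGAGT
Fzd3 circRNA8316, exons 2 to 3, chr14:65239718-65253463, minus strand: tatggagtgcagtagCTATTTCAACAAGAA
The 2 Lrp5 circles end at the same exon and start 1 exon apart, so the lower-case arms are identical.

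The values of these circles are estimated counts whose making is not described in the sources used here. Whether they hold linear reads as well was not tested. The member exonic circles had a median of 0.540 times the FPKM of the host's linear transcripts. Over all 10545 exonic circles whose host averaged above 1 FPKM, a limit not set on the members, the median was 0.891 times. The Tcf7l2 circle of exons 4 to 7 stood apart, at 5910 counts on average and 46.7 times its host's linear FPKM. All linear Tcf7l2 transcripts together held 151 to 286 kb of aligned bases per library, which is few beside that many counts. How the circular and linear values relate was not tested, so the 46.7 is not read here as a true excess of the circle. Ctnnb1 circRNA6920 averaged 4769 counts, and the remaining 4 of the 6 most abundant were Lrp6 circRNA9048 and circRNA5265, Gsk3b circRNA4059 and Apc circRNA9480.

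Between 3 and 24 months 10 of the 32 circles passed the unadjusted edgeR test, 6 higher and 4 lower. That is 31.2% of the circles, beside 28.8% of all 11924 circles, and 6 were called without replicate 31 of the old mice. After adjustment 2 of the 32 passed, beside 1582 of all 11924 circles. Between 3 and 12 months, 1 of the 32 passed after adjustment, beside 791 of all 11923 circles. The Axin2 circle had 19, 23, 16, 32.1 and 23 counts in the young mice, 53, 43, 34, 37.5 and 73.2 counts in the 12-month mice and 35.3, 27.5, 51.0, 39.3 and 50.0 counts in the old mice. Scaled to the library total of circular counts (CPM) it went from 2.86 ± 0.704 to 5.61 ± 1.87 and 4.89 ± 1.30 (n = 5 each), and on this scale the highest young value (3.81) lay above the lowest at 12 months (3.44) and at 24 months (3.63). The log2 difference from 3 months was 0.92 at 12 months (edgeR adjusted p = 0.0375) and 0.69 at 24 months (edgeR adjusted p = 0.0499). The linear Axin2 gene, given above, had no call as FPKM and was called higher at 12 months as FPM, and the difference between its circular and linear change was not tested. Lrp5 circRNA458 rose by 0.35 by 24 months (edgeR adjusted p = 0.0493), from 35.1 ± 5.34 to 47.3 ± 4.82 CPM, and the nested circRNA5089 by 0.27 (edgeR adjusted p = 0.119).

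The Apc circles circRNA9480 and circRNA5932 rose by 0.19 and 0.17, and the intronic Fzd6 circle ciRNA553 by 0.49. Those that fell were Ctnnb1 circRNA6920 by 0.28 (edgeR adjusted p = 0.0605), Gsk3b circRNA4059 and circRNA3325 by 0.26 and 0.21, and Lrp6 circRNA9048 by 0.24. No other of the 9 Lrp6 circles was called in that comparison. Between 3 and 12 months 5 circles were called (15.6% beside 23.7% of all circles, and 3 without replicate 6, 7 or 8 of the young or 19 of the 12-month mice), among them Fzd3 circRNA8316, which fell from 7.94 ± 1.93 to 5.68 ± 1.17 CPM (log2 difference -0.52, edgeR adjusted p = 0.103). Between 12 and 24 months 3 were called (9.38% beside 16.9%, with 1 called without replicate 35 of the old mice and 5 without replicate 21 of the 12-month mice), and the Fzd3 circle was 0.44 higher at 24 months than at 12 months (edgeR adjusted p = 0.183), with Apc circRNA10535 and circRNA9480 the others.

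**Figure D5:**
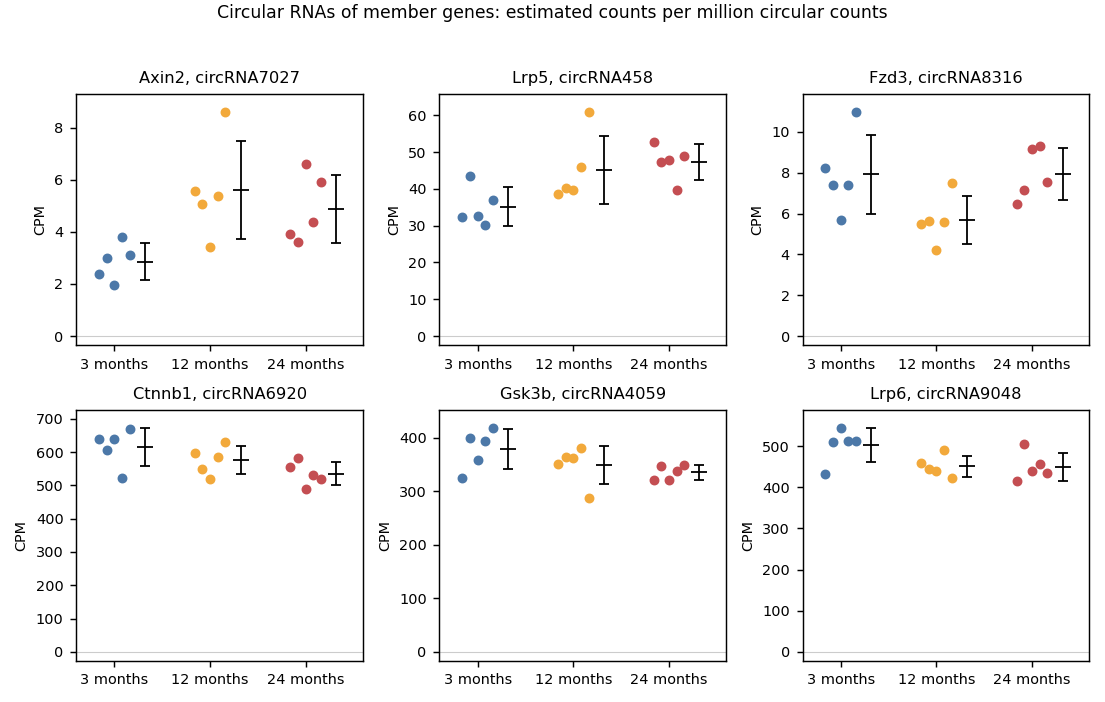
Estimated counts scaled to the circular total (CPM, y axis, linear) per mouse for 6 circles of Axin2, Lrp5, Fzd3, Ctnnb1, Gsk3b and Lrp6 at 3, 12 and 24 months, with the mean ± SD of 5 mice beside the points. The Axin2 circle lies at means of 2.86, 5.61 and 4.89 CPM, and the Ctnnb1, Gsk3b and Lrp6 circles lie lower at 24 months than at 3 months with overlapping values.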

How the data were processed

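Kidney RNA of 15 male mice, 5 at each of 3, 12 and 24 months, was sequenced after removal of ribosomal RNA with a stranded total RNA kit, per the labels. The study's methods describe pooled RNA and oligo(dT) selection, and which holds was not resolved. The same methods also number 5 young and 5 old mice singly, and each library here carries its own number. The study's methods state that young and old mice were killed on 1 day; with pooling unresolved, p-values measure the spread between these samples, which may be technical. The authors trimmed reads with Cutadapt, aligned them to GRCm38 with Ensembl release 88 and assembled transcripts with StringTie, and deposited FPKM and mean coverage per transcript; the submitters' processing notes also name TopHat2. For each circular RNA the table deposited holds estimated counts and an FPKM, and how these were made is not given in the sources used here.

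A gene's value was the sum of FPKM over its annotated (class code =), contained (c) and new (j or o) transcripts. Differences were tested with limma 3.58.1 with a mean-variance trend on log2(FPKM + 1), over the 10 mice of each comparison and all genes above 0 in at least 1 mouse, with Benjamini-Hochberg adjustment over all genes. Calls, and the words "rose" and "fell", mean that the unadjusted p lay under 0.05. Exact permutation tests on FPKM were 2-sided. Estimated counts of circles were rounded and tested with edgeR 4.0.16 (quasi-likelihood, TMM), with DESeq2 1.42.0 as an alternative. Aligned bases were obtained from coverage times transcript length. FPKM hold no read counts, so precision was judged from the aligned bases and the spread between mice. The software was R 4.3.3, Python 3.11.15, pandas 2.3.3 and matplotlib 3.10.9, and the tests were tried on simulated data.

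The members and gene lists were chosen with earlier results of these data known. Values by mouse or range were given for members called in any comparison, the highest member of each role, Axin2 and Lef1. Up to 10 other pathway genes per comparison were named by p, and transcripts called with a mean of at least 0.5 FPKM, the 6 most abundant circles and the called circles were named. Some Frizzled genes were added after their values were seen. Of 91 pathway genes listed, 89 were found.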

Additional observations from a re-analysis of the deposited data

Results flagged for a closer look

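Of 102 groups of 5 mice examined, 8 held a mouse whose gap to its nearest neighbour took more than 0.71 of the group's range. Chance flags about 1 in 20 groups of normally distributed values. That rate was not checked for these groups, some of which hold values listed at 0. In 3 of the 8 flagged groups the other young mice were all listed at 0, so any value above 0 is flagged: Dkk4 was at 0.0684 FPKM and Dkk1 at 0.0371 FPKM in replicate 8, and Wnt7a at 0.0155 FPKM in replicate 7. Among the old mice, replicate 32 had 64.1 FPKM of Lrp6 against 45.9 to 47.6 FPKM in the others, and 9.53 FPKM of Tcf7l2 against 6.88 to 7.50 FPKM. As FPM, which do not depend on the division among transcripts, Lrp6 was lowest in that mouse, at 280 against 365 to 394 in the other old mice. Replicate 34 of the old mice had 28.2 FPKM of Fzd4 against 9.89 to 12.2 FPKM, and 22.9 FPKM of Sfrp1 against 0.471 to 6.50 FPKM. Replicate 6 of the young mice had 335 estimated counts of the Lrp5 circle circRNA458 against 255 to 274 in the others.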

How the results depend on the processing

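Counts of calls are given in the order main, alternative. With genes of a mean of at least 0.5 FPKM alone, members between 3 and 24 months went from 7 to 3, members between 3 and 12 months from 7 to 2, pathway genes between 3 and 24 months from 20 to 11 and member transcripts from 10 to 6. This setting leaves lower genes untested, among them Wnt8b, Wnt16, Wnt9a and Dkk4, so their calls did not fail in it. Of all genes between 3 and 24 months, it called 2935 of 15688, beside 4725 of 31755 in the main setting. Between 3 and 12 months it called 2849 of 15637, beside 4537 of 31637. Both are larger shares of all genes than in the main setting. The numbers of members, pathway genes and transcripts tested in it are not given here. Their counts therefore give no share to set beside that of all genes. With an adjusted p under 0.05 in place of the unadjusted p, members numbered 2, 0 and 0 in the comparisons of 24 with 3, 12 with 3 and 24 with 12 months, pathway genes 1, 1 and 0, member transcripts 0 and circles 2, 1 and 0. Of all circles, 1582 of 11924, 791 of 11923 and 88 of 11925 passed in these comparisons. Of all genes, 386 of 31755, 79 of 31637 and 1 of 32282 passed. With an unadjusted p under 0.05 and a log2 difference above 1 in size, members numbered 0, 0 and 0, pathway genes 2, 1 and 0 and member transcripts 0. Members between 3 and 12 months numbered 4 with a pseudocount of 0.1 and 4 with median-ratio scaling. Pathway genes between 12 and 24 months went from 6 to 2 with annotated transcripts alone, and circles from 3 to 5 with DESeq2.

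Leaving out 1 mouse at a time gave 4 to 7 members for 24 against 3 months, 2 to 8 for 12 against 3 and 2 to 6 for 24 against 12. It gave 12 to 23 (lowest without old replicate 33), 13 to 22 (lowest without young replicate 8) and 3 to 7 pathway genes (lowest without old replicate 34), 8 to 13 member transcripts, and 6 to 10, 3 to 6 and 1 to 5 circles (1 without old replicate 35, 5 without 12-month replicate 21).

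The direction turned for Dkk2 (-0.26) and Daam2 (-0.13) between 3 and 12 months and for Tspan12 (-0.51) between 12 and 24 months with annotated transcripts alone, and for Nfatc1 (-0.0939) between 3 and 12 months with every class code. Of 152 results for called members under settings that keep all mice, 124 kept their call. This tally leaves out the rules with an adjusted p or a log2 difference above 1, and settings in which a member was not tested. Fragments scaled to library size alone, chosen after seeing the data, gave 6, 7 and 4 members, beside 4750 of 31755, 4649 of 31637 and 2139 of 32282 genes. At 24 against 3 months Gsk3b was gained as lower (-0.14) and Wnt16 and Wnt9a were lost, and at 12 against 3 months Axin2 was gained (0.50) and Wnt16 was lost. The cause of these changes was not tested. No paired analysis was possible because the ages share no replicate numbers.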
